A study of Mus musculus with 16 samples.

Results

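The genes described here encode the proteins of the cytosolic ribosome, measured in the kidneys of mice whose label, MFP2-/-, names a deletion of the peroxisomal multifunctional protein 2 (MFP2). Members were the probes whose single gene symbol begins with Rpl or Rps and a number, or is Rplp0, Rplp1, Rplp2 or Rpsa. The S6 kinases, mitochondrial ribosomal genes, pseudogenes and like-genes ending in l1 were left out. The binding protein Rps19bp1, which the letters also match, was set apart. This gave 91 probes for 59 genes, 36 of the large and 23 of the small subunit, among 9846 named genes tested. All 59 passed the filter on missing values, and 57 had a value on all 16 arrays.

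The kidneys came from 4 males with the label MFP2-/-, and the common reference was 1 pool of kidney RNA from 5 wild-type males of the Swiss strain SWR/Ola Hsd; mutants and controls were 15 weeks old. The background strain of the mutants is not stated in the labels, so genotype and strain cannot be told apart. Each mouse had 4 two-colour cDNA arrays, 2 for each orientation of the dyes Cy5 and Cy3. The arrays of 1 mouse share their RNA, so n is 4 mice, and the pool, as 1 control sample, shows nothing of how wild-type kidneys vary. For mouse 1 the titles and the source name carry different numbers. Its 4 arrays were taken as 1 mouse because they share a Mouse ID. Values are log2 ratios, mutant over pool, where 0 means the same signal in both. This direction is inferred and not stated: channel 1 of each labelled array is the mutant whatever its dye. Spots at an extreme value were all positive where the mutant was in Cy5 (292 spots) and all negative where it was in Cy3 (218 spots). Their sign changed with the orientation, which cannot tell mutant over pool from pool over mutant. With the opposite sign, higher would read lower throughout.

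MFP2, encoded by Hsd17b4, breaks down very long and branched fatty acids in peroxisomes. The targeted gene's 2 probes disagreed. Probe 4590 read -1.69, -1.499, -0.10 and -0.34 over mice 1 to 4, and probe 1446 read 0.02, 0.83, 0.34 and 0.52. Thus 1 of the probes was low in mice 1 and 2 and neither was clearly low in mice 3 and 4, and which exons they cover is unknown here, so the check of the labels is incomplete. The arrays held 19737 to 20228 values each, and their number limits the precision of every ratio.

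The cytosolic ribosome joins a small subunit, which reads the messenger RNA, to a large subunit, which forms the peptide bond. Most of its proteins are needed in equal amounts, and the messages of ribosomal proteins are among the most abundant of most cells. Most of these messages begin with a terminal oligopyrimidine (TOP) tract, a C followed by an unbroken run of C and T, through which the mTOR pathway and the protein Larp1 govern their translation and stability.

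To show a feature that many members share, 8 genes were chosen from those with the smallest unadjusted p against the pool, not in strict order of p. The stretch around the annotated start of transcription is printed for each. Each runs from 20 bases before to 25 bases after the start, in RefSeq's annotation of GRCm38.p6, and capitals mark a C followed by C or T over at least 8 bases in all. Rpl22 and Rps4x, also among the smallest p, had no such run in this window and are not printed. The even split of the 8 was thus chosen and is no share of the members. The 4 printed genes with such a run near the start were these.
Rps18, chr17:33955641-33955685, minus strand: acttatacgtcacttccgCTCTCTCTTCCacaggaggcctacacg
Rpl28, chr7:4792945-4792989, plus strand: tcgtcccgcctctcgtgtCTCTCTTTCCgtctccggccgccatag
Rps10, chr17:27635220-27635264, minus strand: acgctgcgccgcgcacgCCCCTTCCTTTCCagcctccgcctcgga
Rpl7a, chr2:26910787-26910831, plus strand: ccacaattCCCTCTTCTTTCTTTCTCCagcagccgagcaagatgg
The other 4 had none in this window.
Rps16, chr7:28350669-28350713, plus strand: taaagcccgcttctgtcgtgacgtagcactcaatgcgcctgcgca
Rplp0, chr5:115559447-115559491, plus strand: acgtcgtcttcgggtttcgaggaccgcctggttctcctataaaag
Rpl23, chr11:97782415-97782459, minus strand: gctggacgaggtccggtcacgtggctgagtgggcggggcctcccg
Rps15, chr10:80292411-80292455, plus strand: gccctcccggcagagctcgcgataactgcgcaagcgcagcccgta

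Of the 59 members, 51 had a start in the RefSeq promoter table; Rpl30, Rpl32, Rpl7, Rpl8, Rplp1, Rps14, Rps20 and Rps29 had none. A run of this kind, on the strand that reads as the messenger RNA, was present in 27 of the 51 (52.9%). It was present in 17 of 31 large-subunit and 10 of 20 small-subunit genes. Among 7948 named genes tested that have a promoter, 17.4% held one, and 15.9% of all 27025 genes with a listed promoter did. In the full 300 bases of each promoter, on either strand, the motif CCGGAAG was present in 23 of 51 members (45.1%) and in 17.9% of the named genes tested. The palindrome TCTCGCGA was present in 10 of 51 members (19.6%) and in 2.16% of the named genes tested. A match is a description of the letters, and a start annotated some bases away would move the window. The ratios of members with and without the pyrimidine run lay close together: the median log2 ratio was 0.18 over the 27 members with it and 0.20 over the 24 without.

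Against the wild-type pool, the ribosomal protein genes lay together on the higher side by a small amount, and none passed the test. The mean over mice was above 0 in 56 of 59 members, in 33 of 36 large-subunit and 23 of 23 small-subunit genes, against 8086 of all 16140 rows (genes and unnamed probes). The median log2 ratio was 0.20 over large-subunit genes and 0.19 over small-subunit genes, or 1.15-fold and 1.14-fold, while that of all rows was 0.00. If the deposited values were Cy5 over Cy3 on every array, these medians would be 0.05 and 0.08. The quartiles of the members, 0.11 and 0.26, lay above 0, and those of all rows were -0.07 and 0.09.

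None of the 59 members passed limma's moderated test at an adjusted p under 0.05, where 0% of all rows passed. The smallest adjusted p was 0.548 among the members and 0.327 among all rows. At an unadjusted p under 0.05, 22 members were higher, 14 of the large and 8 of the small subunit, and 0 were lower; among all rows 5.83% were higher at that p. The ratio was positive in every mouse for 29 members (17 large, 12 small), where 10.2% of all rows were. With all 16 arrays as observations and the mouse as a random block, limma called 6 members higher (Rpl23, Rpl8, Rplp0, Rplp2, Rps16 and Rps4x), where 1.13% of all rows were called higher; the estimated correlation within a mouse was 0.04, so that fit counts arrays of the same RNA almost as separate animals. The count of 22 fell to 11 without mouse 2 and to 6 without mouse 4, where 4.09% and 3.41% of all rows were higher. It was 22 and 26 without mice 1 and 3, where 5.56% and 4.87% of all rows were higher.

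**Figure D1:**
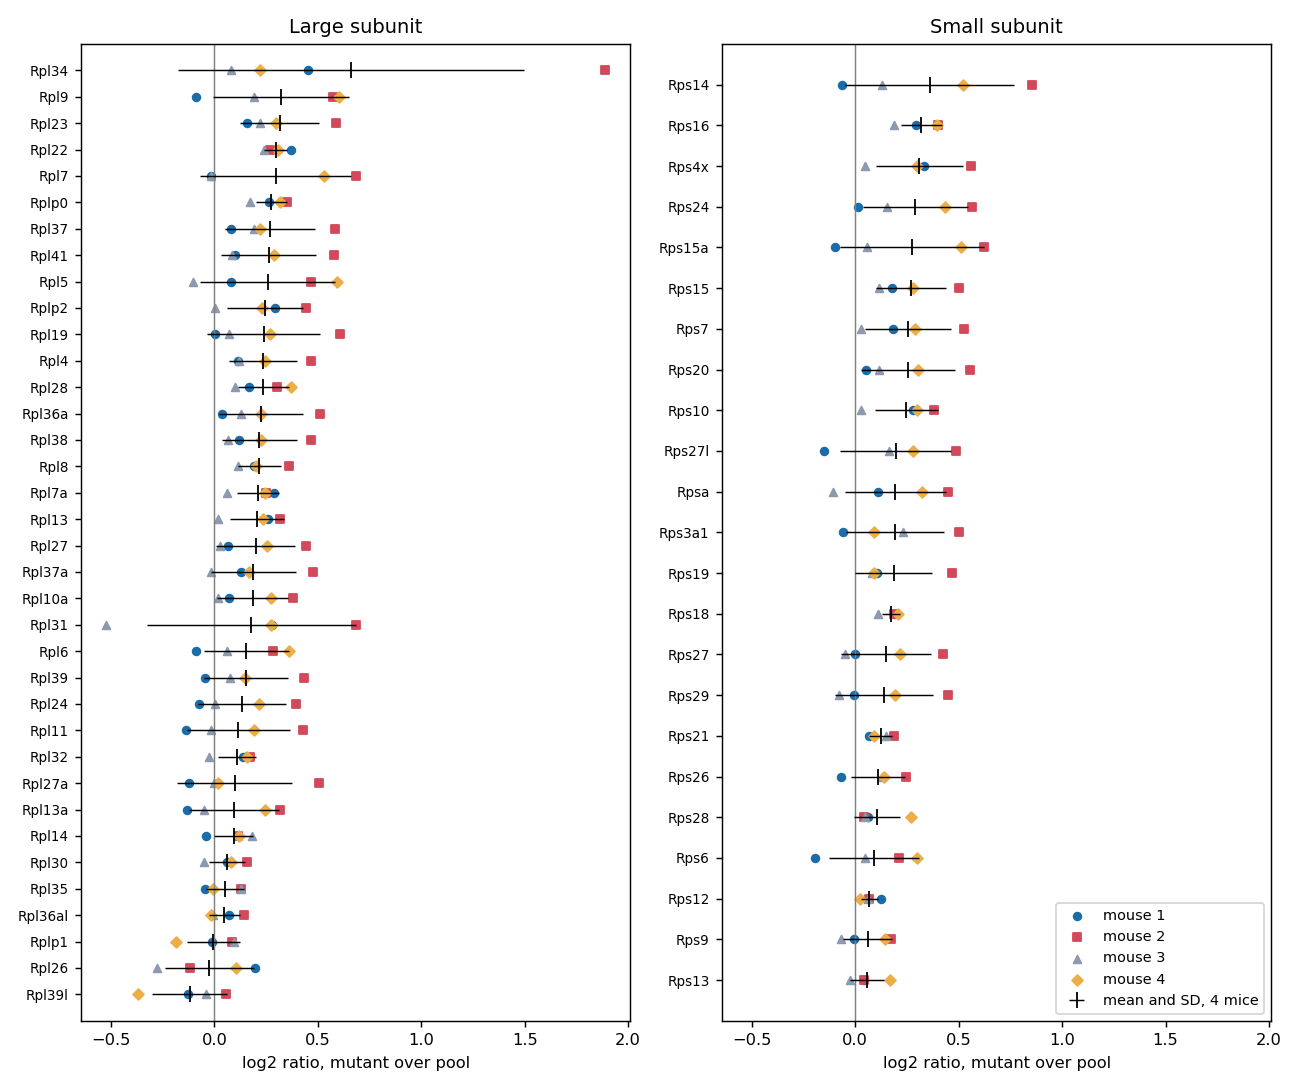
Log2 ratio, mutant over pool, of each ribosomal protein gene in each of the 4 mice, ordered by mean, with the large subunit on the left and the small subunit on the right. Coloured symbols are mice, and the black mark and bar are the mean and SD over mice; most means lie between 0 and 0.36, and mouse 2 is the rightmost symbol in 44 of 59 genes.

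In the large subunit, the gene with the smallest unadjusted p after Rpl22 was Rplp0, the base of the stalk that recruits elongation factors to the ribosome. Its log2 ratios were 0.27, 0.35, 0.17 and 0.32 in mice 1 to 4, a mean of 0.28 ± 0.08 (SD, n = 4), or 1.21-fold, with an adjusted p of 0.548 by limma. All mice were above 0, as were 15 of its 16 arrays. The other stalk proteins differed from it and from each other. Rplp2 had 0.29, 0.44, 0.00 and 0.23, with mouse 3 at the level of the pool. Rplp1, its partner in the stalk dimer, had -0.01, 0.08, 0.10 and -0.19, with mice on both sides of 0 and a mean of -0.00 ± 0.13.

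Rpl23, which lies at the face that meets the small subunit, had log2 ratios of 0.16, 0.59, 0.22 and 0.30, a mean of 0.32 ± 0.19 or 1.25-fold. Mouse 2 stood highest and the other 3 mice lay close together. Rpl8, a protein near the peptidyl transferase centre, had 0.19, 0.36, 0.12 and 0.20, a mean of 0.22 ± 0.10. It was 1 of only 2 members with a positive ratio on 16 of 16 arrays, which ran from 0.02 to 0.41. Rpl28 had 0.17, 0.30, 0.10 and 0.37, with mice 2 and 4 above the others. Rpl7a, which binds ribosomal RNA at the surface of the subunit, had 0.29, 0.25, 0.06 and 0.25, with mouse 3 alone near 0. Rpl13 likewise had mouse 3 near 0, at 0.02, and the other mice between 0.24 and 0.32. Rpl4, a core protein of the exit tunnel, had 0.11, 0.47, 0.12 and 0.24.

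The highest mean of the subunit was that of Rpl34, at 0.66 ± 0.83, with values of 0.45, 1.89, 0.08 and 0.22. The mean was 0.25 without mouse 2, and 1 of the 2 probes gave the high value of that mouse. Probe 15590, with a value on 13 arrays, had 1.05, 3.55, 0.14 and 0.54, while probe 19043, with a value on all 16, had -0.15, 0.23, 0.02 and -0.10. Only 3 members had a mean below 0, and all were of the large subunit. Rpl39l, a copy of Rpl39 known from testis, had -0.13, 0.06, -0.04 and -0.37, a mean of -0.12 ± 0.18. Rpl26, which lies near the tunnel exit, had 0.19, -0.12, -0.28 and 0.10, a mean of -0.02 ± 0.21, and its sign changed without mouse 2 (0.01) or mouse 3 (0.06). Rplp1 was the third, and its mean was 0.06 without mouse 4.

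In the small subunit, Rps16 had the smallest unadjusted p. Its log2 ratios were 0.29, 0.40, 0.19 and 0.40 in mice 1 to 4, a mean of 0.32 ± 0.10 (SD, n = 4), or 1.25-fold, with an adjusted p of 0.548 by limma. It was the other member that was positive on 16 of 16 arrays, from 0.06 to 0.71. Rps18, at the head of the subunit, had close values, 0.19, 0.19, 0.11 and 0.21, a mean of 0.17 ± 0.04. The mice differed by at most 0.096, although single arrays ran from -0.45 to 0.56.

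Rps4x, the X-linked form of its protein, had log2 ratios of 0.33, 0.56, 0.05 and 0.30, with mouse 2 highest and mouse 3 near 0. Rps15 had 0.18, 0.50, 0.12 and 0.28, and Rps7 had 0.18, 0.52, 0.03 and 0.29, where mouse 2 was highest, then mouse 4. Rps10, at the messenger RNA entry side, had 0.28, 0.38, 0.03 and 0.30, again with mouse 3 lowest. In Rps24 (0.01, 0.56, 0.15 and 0.44) and Rps20 (0.05, 0.55, 0.12 and 0.30), mouse 1 was lowest instead. The highest mean, 0.36 ± 0.41, was that of Rps14, where mice 2 and 4 stood at 0.85 and 0.52 and mice 1 and 3 at -0.06 and 0.13. Its 2 probes gave nearly the same mean, 0.37 and 0.35. The lowest mean was that of Rps13, at 0.06 ± 0.08, with values of 0.04, 0.04, -0.03 and 0.17; it was -0.11 over the only probe with a value on every array.

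Rpsa and Rps6 were named for what they are known for. Rpsa, also known as the laminin receptor, had 0.11, 0.45, -0.11 and 0.32, with only mouse 3 below 0. Rps6, the substrate of the S6 kinases downstream of mTOR, had -0.19, 0.21, 0.05 and 0.30, with mouse 1 below 0 and a mean of 0.09 ± 0.22. Its 2 probes gave means of 0.23 and -0.05.

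Large and small subunit had nearly the same median in each mouse. The median log2 ratio of large-subunit genes was 0.08, 0.41, 0.06 and 0.23 in mice 1 to 4, and that of small-subunit genes was 0.05, 0.45, 0.06 and 0.28. The difference, large minus small, was 0.02, -0.04, -0.00 and -0.05, a mean of -0.02 ± 0.03 (SD, n = 4). The subunits differed from each other by far less than the mice did.

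The mice differed in how far their ribosomal protein genes lay above the pool. In mouse 2 the median over both subunits was 0.43 (1.34-fold) and 58 of 59 genes were above 0. In mouse 4 it was 0.24 (1.18-fold), with 55 genes above 0. Mice 1 and 3 lay close to the pool, at 0.07 and 0.06, with 38 and 42 genes above 0. The medians of all rows ran from -0.01 to 0.01. Mouse 2 was the highest mouse in 44 of 59 members (74.6%), against 31.0% of all rows measured in every mouse. Mice 2 and 4 both exceeded mice 1 and 3 in 39 members, and in 19.7% of all rows. Without mouse 2 the median of the large subunit was 0.12 and that of the small subunit 0.11.

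Differences between the mice were tested over single arrays with limma's F-test and a term for dye. At an adjusted p under 0.05 the test called 0 members, and 0.189% of all 15856 rows tested. At an unadjusted p under 0.05, 25 members differed between mice, 14 of the large and 11 of the small subunit, against 11.2% of all rows. The smallest adjusted p was 0.0530, for Rps14. The p measures only the spread between arrays of the same RNA. Next came Rpl31, with 0.28, 0.68, -0.52 and 0.27, where mouse 3 stood alone below 0. Rpl9 followed with -0.09, 0.57, 0.19 and 0.60, and Rpl5, which carries the 5S ribosomal RNA into the subunit, with 0.08, 0.47, -0.11 and 0.59. In both, mice 2 and 4 stood together above mice 1 and 3. Among the 35 members with a single probe, the median SD between mice was 0.21 and the median SD between repeat arrays was 0.18. For all 6878 named genes with a single probe these were 0.16 and 0.26. The SD between mice is over values that each average the arrays of a mouse, while the SD between repeats is over single arrays. These SDs are therefore not on the same scale, and each can only be compared between members and all genes.

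**Figure D2:**
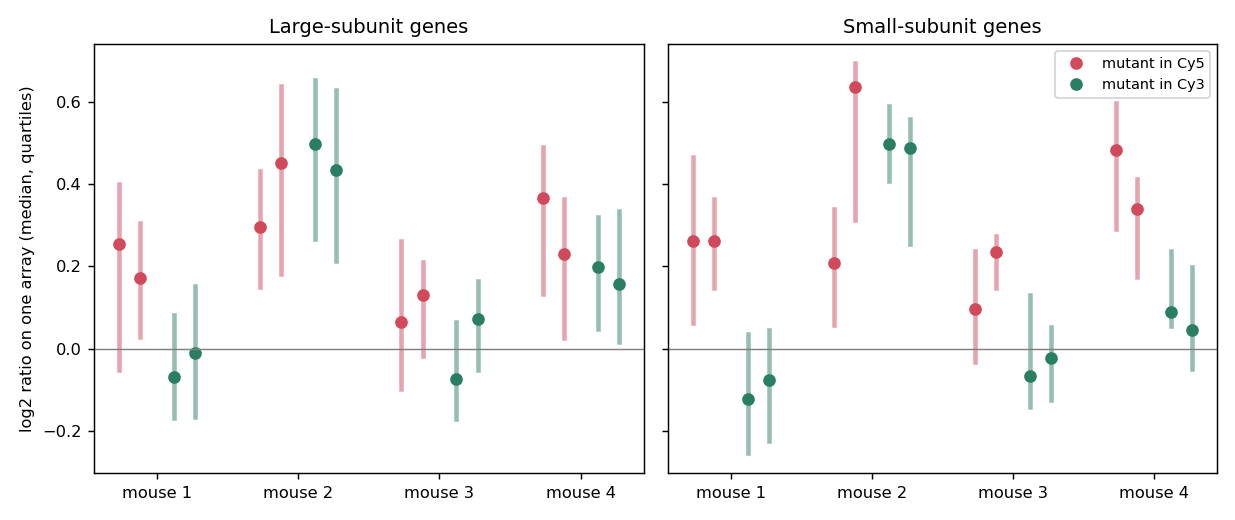
Median (point) and quartiles (bar) of the log2 ratios of large-subunit genes (left) and small-subunit genes (right) on each of the 16 arrays, grouped by mouse and coloured by the dye that carried the mutant RNA. All 8 arrays of mice 2 and 4 have medians above 0, while in mice 1 and 3 the medians are above 0 with the mutant in Cy5 and, except for the large subunit on 1 array of mouse 3, below 0 with the mutant in Cy3.

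The ratios also varied with the dye that carried the mutant RNA, to a different extent in each mouse; that difference between mice was not tested. Over both subunits, the Cy5 arrays of mouse 1 had medians of 0.26 and 0.23 and its Cy3 arrays -0.10 and -0.06. For mouse 3 these were 0.08 and 0.18, and -0.07 and 0.01. In these mice the ratio was above the pool in 1 orientation and near or below it in the other. Mouse 2 had 0.24 and 0.48 in Cy5, and 0.50 and 0.45 in Cy3. Mouse 4 had 0.38 and 0.25 in Cy5, and 0.14 and 0.11 in Cy3. The medians of both were above 0 on all 8 arrays, although in mouse 4 they were lower in Cy3 than in Cy5.

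Gene by gene, 50 of 59 members (84.7%) were above 0 in both orientations in mouse 2 and 39 (66.1%) in mouse 4, where 29.1% and 20.3% of all rows were. In mice 1 and 3 only 14 (23.7%) and 15 (25.4%) were, where 18.6% and 21.5% of all rows were. Averaged over mice, the members' median was 0.25 where Cy5 labelled the mutant and 0.13 where Cy3 did. The gap was wider in the small subunit, 0.26 against 0.07, than in the large, 0.24 against 0.15; that difference was not tested. The Cy5 mean exceeded the Cy3 mean in 43 members (72.9%) and in 45.5% of all rows. Still, 45 members (76.3%) had both means above 0, against 20.3% of all rows.

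The dye term of the same limma fit passed an adjusted p under 0.05 in 9 members, against 8.4% of all rows. Of these, 3 were of the large subunit (Rpl22, Rpl9 and Rpl30) and 6 of the small (Rps3a1, Rps15a, Rps20, Rps27l, Rps10 and Rps21). The count was 0 without mouse 1, 19 without mouse 2, 0 without mouse 3 and 1 without mouse 4. In the same fits the count over all rows also varied widely, so these changes are not particular to the members. Rpl22, an RNA-binding protein that a mouse can replace by its copy Rpl22l1, had the smallest p. Its values over mice were even, 0.37, 0.27, 0.24 and 0.31, a mean of 0.30 ± 0.06, but they average opposite signs: -0.24 when Cy5 labelled the mutant and 0.83 when Cy3 did (limma adjusted p of the dye term 0.0103). Rps15a ran the same way, with -0.07 in Cy5 and 0.57 in Cy3. Rps3a1 ran the opposite way, with 0.47 in Cy5 and -0.09 in Cy3. Rps20 and Rps10, named above for their low p against the pool, had 0.53 and 0.43 in Cy5 and -0.02 and 0.06 in Cy3. Over the mice their means thus came mostly from 1 orientation. In mouse 2, however, the Cy3 arrays were above 0 as well, at 0.61 and 0.56 for Rps20 and 0.45 and 0.27 for Rps10. Rps16 had 0.33 in Cy5 and 0.31 in Cy3, and Rps24 had 0.30 and 0.29, nearly equal in both orientations.

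**Figure D3:**
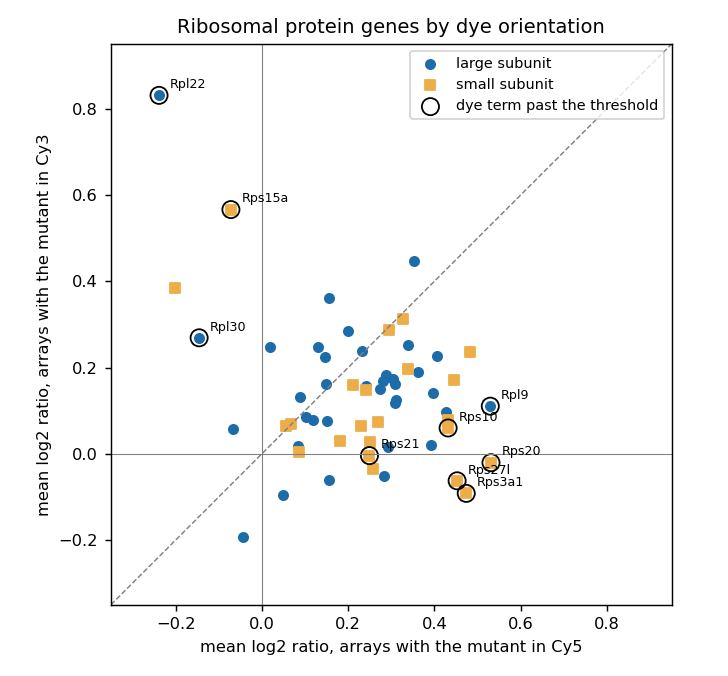
Mean log2 ratio of each ribosomal protein gene with the mutant in Cy5 (horizontal) against that with the mutant in Cy3 (vertical), large-subunit genes as circles and small-subunit genes as squares. The dashed line marks equal values and rings mark the 9 genes whose dye term passed the threshold; Rpl22, Rps15a and Rpl30 lie above the line and the other 6 ringed genes below it.

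Where a gene had several probes, they often differed. Of the 24 such members, 12 had probes with means of both signs, and the median gap between a gene's lowest and highest probe was 0.22, larger than the members' median ratio of 0.19. After Rpl34, the widest gaps were those of Rps9 (0.28 and -0.16), Rpl4 (0.02, 0.29 and 0.41), Rpl14 (-0.07, 0.02 and 0.32) and Rpl35 (-0.13, 0.07 and 0.22). In Rps9 every mouse was below 0 on one probe and above 0 on the other. The 2 probes of Rps13 did the same, with 0.17, 0.27, 0.06 and 0.40 on one and -0.08, -0.19, -0.11 and -0.07 on the other. Ribosomal protein genes have many processed pseudogenes and close copies, and spotted cDNA cannot separate near-identical messages, so the values of single genes are uncertain. Whether this accounts for the differences between probes was not tested. Some copies of a member were measured beside it: Rpl39 had a mean of 0.15 and Rpl39l of -0.12, Rpl36a had 0.22 and Rpl36al 0.05, and Rps27 had 0.15 and Rps27l 0.20. Without Rpl39l, Rpl36al and Rps27l the medians were 0.21 for the large and 0.19 for the small subunit.

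Some genes whose symbols resemble those of members were left out by the rule. The like-genes Rpl22l1 and Rpl7l1 had means of -0.15 ± 0.10 and -0.10 ± 0.06, below 0 in every mouse. The binding protein Rps19bp1 had 0.04 ± 0.08. Among S6 kinase genes, Rps6ka5 had -0.18, Rps6kl1 -0.07, Rps6kc1 -0.01 and Rps6kb2 0.02. None of these passed limma's test.

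Other genes of protein synthesis were read from lists of known members. Of 47 translation factors 37 were measured; 29 were above 0, 3 were higher and 0 lower at an unadjusted p under 0.05, and the median log2 ratio was 0.08. Their mouse medians were -0.02, 0.20, 0.01 and 0.12, with mice 2 and 4 above mice 1 and 3. Eef1b2, which recharges the elongation factor eEF1A, had 0.20, 0.60, 0.19 and 0.35, a mean of 0.33 ± 0.19. Eef1a1, that elongation factor and itself a TOP message, had 0.01, 0.59, 0.08 and 0.46, and Eif3a, a subunit of initiation factor eIF3, had 0.27, 0.55, -0.04 and 0.22. The list of other TOP messages and ribosome-linked proteins shares Eef1a1, Eef2, Pabpc1 and Tpt1 with the first list, so the lists are not independent. It had 10 of 12 genes measured, a median of 0.11 and 9 above 0, of which 1 was higher at an unadjusted p under 0.05. Its mouse medians were 0.00, 0.30, -0.06 and 0.19. Npm1, a nucleolar chaperone, had 0.08, 0.71, 0.19 and 0.04, and Eef2, the translocation factor, had 0.01, 0.29, 0.02 and 0.35.

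The genes that build ribosomes lay nearer to the background. Of 45 ribosome biogenesis genes 33 were measured, with a median of 0.04, 19 above 0, 2 higher and 1 lower at an unadjusted p under 0.05, and mouse medians of 0.03, 0.02, 0.02 and 0.06. Rrp1 had 0.05, 0.20, 0.16 and 0.27, the nucleolar protein Ncl had -0.01, 0.29, 0.20 and 0.27, and Nmd3, the export adaptor of the large subunit, had -0.12, -0.30, -0.46 and -0.05. Of 19 genes of mTOR signalling to the ribosome 12 were measured, with a median of 0.00, 6 above 0 and 0 at an unadjusted p under 0.05 in either direction. Their smallest p values belonged to Rheb (mean -0.11 ± 0.16), Larp4 (0.12 ± 0.19) and Akt2 (-0.05 ± 0.10). Mtor itself, singled out because it passed limma's F-test between mice at an adjusted p under 0.05, had -0.84, 0.46, 0.32 and 0.29, with mouse 1 alone below 0. The 64 genes of the mitochondrial ribosome, which translates only the mitochondrial genome, had a median of 0.05, with 43 above 0, 4 higher and 0 lower at an unadjusted p under 0.05. Their mouse medians were -0.02, 0.12, 0.02 and 0.04. Mrpl53 had 0.03, 0.50, 0.21 and 0.57, Mrpl15 had 0.14, 0.39, 0.22 and 0.11, and Mrps15 had 0.71, 1.52, 0.10 and 0.13. No gene of these 5 lists passed limma's test against the pool, and the differences between lists were not tested.

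**Figure D4:**
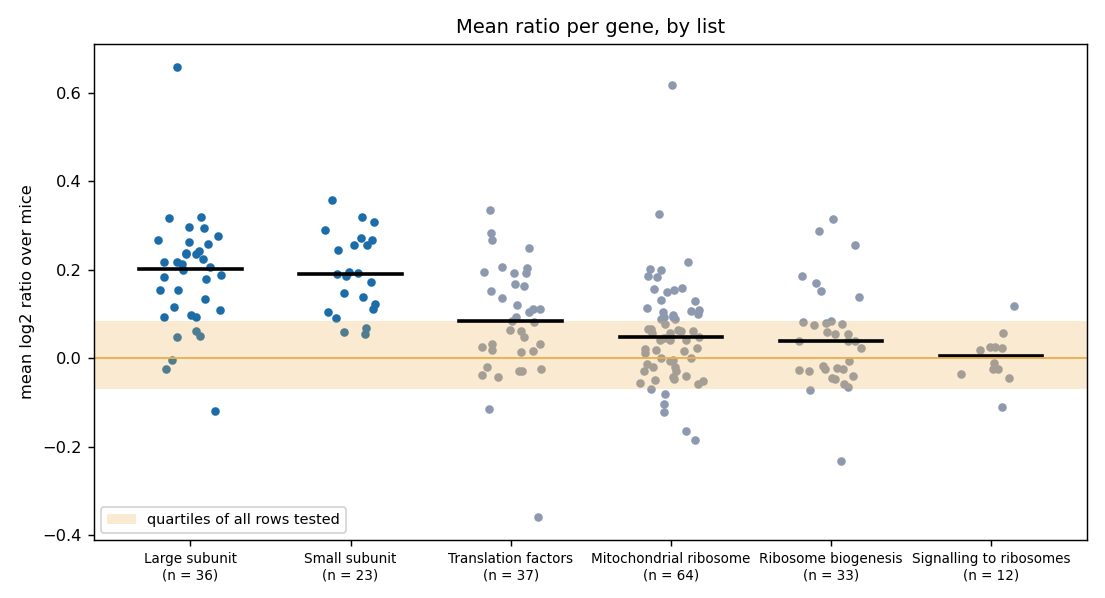
Mean log2 ratio over mice of each gene in the large subunit, the small subunit and 4 other lists, with the list's median as a black line and the quartiles of all rows tested as a shaded band from -0.07 to 0.09. The medians of the ribosomal subunits, 0.20 and 0.19, lie above the band, that of translation factors at 0.08 lies at its upper edge, and the other 3 lie inside it.

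Because the arrays give ratios, the level of kidney markers is unknown, and in a whole organ fewer cells of a type and less RNA per cell cannot be told apart. The marker lists varied over the mice in different ways, as did single genes within a list. Of 9 proximal tubule markers 7 were measured, 6 of them above 0, with a median of 0.21 and mouse medians of -0.00, 0.28, 0.10 and 0.25. In these medians mice 2 and 4 stood above mice 1 and 3, as in the ribosomal genes, but not in every gene. The reabsorption receptor Cubn (0.25 ± 0.10) followed that order, while Napsa (0.31 ± 0.11) was highest in mouse 1, at 0.41. The phosphate transporter Slc34a1 (-0.20 ± 0.09) had -0.07, -0.27, -0.19 and -0.26 in mice 1 to 4. Of 6 loop and distal tubule markers 4 were measured, 3 above 0, with a median of 0.34 and mouse medians of 0.30, 0.45, 0.14 and 0.34. Here mouse 1 lay close to mouse 4, and only 2 of the 4 genes were above 0 in mouse 2. The genes include Slc12a1 (0.56 ± 0.24), S100g (0.65 ± 0.39) and Umod (-0.15 ± 0.20).

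Adrenal markers ran the other way over the mice. Of 4 markers 3 were measured, with mouse medians of 0.20, -0.17, 0.46 and -0.16, high where the ribosomal genes were low. Cyp21a1 had 0.98, -0.01, 0.46 and -0.16, Star had 0.20, -0.75, 0.64 and -0.04, and Cyp11a1 had -0.25, -0.17, 0.12 and -0.29, so the 3 genes did not follow a single order.

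The remaining lists gave the following values. Blood markers (3 of 7 measured, 0 above 0) had mouse medians of -0.11, -0.13, -0.13 and 0.07, with Hba-a1 at -0.34 ± 0.29. Leukocyte markers (7 of 10 measured, 1 above 0) had a median of -0.03, and their smallest p values belonged to Laptm5 (-0.09 ± 0.13), Cd52 (0.12 ± 0.25) and Cd79b (-0.05 ± 0.16). Collecting duct markers (3 of 5 measured, 1 above 0) had a median of -0.01, but the water channel Aqp2 had 0.43, 0.81, 0.23 and 0.38 in mice 1 to 4. Endothelial markers (4 of 4 measured, 3 above 0) had a median of 0.10 and went both ways. The junction gene Cdh5 had 0.00, 0.65, 0.19 and 0.53, with mice 2 and 4 highest, while the receptor Tek, measured in 3 mice, had -1.84, -0.65 and -0.11 in mice 2, 3 and 4. Fat markers (3 of 4 measured, 2 above 0) had a median of 0.12, with Fabp4 at 0.09, 0.78, 0.32 and 0.11. Of 4 podocyte markers only Podxl was measured, with 0.25, 0.40, -0.08 and 0.33, again with mice 2 and 4 highest. None of these markers passed limma's test against the pool. The part of these cell types in the ribosomal result was not tested.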

How the data were processed

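The deposited log2 ratios of the authors, 1 per probe and array, were analysed; log base, direction and how they were normalised are not stated in these sources. Base and direction were inferred, and spot intensities were not used here. Probes took their names from the platform annotation, updated through RefSeq (GRCm38.p6). A single symbol was found for 14030 of the 20355 probes; 5 with several, such as that of Rpl12, and 6320 with none stayed unnamed.

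Values beyond 10 in size were set missing (510 spots, 0 of them in members) and arrays were centred on their medians. Arrays of a mouse were averaged within each orientation, then over both, and probes of a gene were averaged. Probes lacking both orientations in at least 3 of the mice were dropped, which left 16140 rows. Where a probe lacks values, array and mouse means can differ. Ratios were tested against 0 with limma 3.58.1 (lmFit, eBayes, two-sided, Benjamini-Hochberg at 0.05 over all rows) in R 4.3.3, and differences between mice and dyes on single arrays. The fits were tested on simulated data.

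The members and lists were chosen with earlier results of these data known. Named were, per subunit, the 8 smallest p and the highest and lowest mean; members with a mean below 0; the 4 smallest p between mice and 3 for dye; Rplp0, Rplp1, Rplp2, Rpsa and Rps6; the 5 widest probe gaps; per other list, the 3 smallest p; Hsd17b4; and genes just outside the rule. Other genes were singled out after their values were seen. Alternatives varied centring, scaling, missing values, averaging, dye, repeat, sign and mice.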

Additional observations from a re-analysis of the deposited data

Results flagged for a closer look

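In 3 genes the value of 1 mouse stood far from the other 3 by Dixon's criterion, which chance meets in about 1 of 20 groups: Rpl32 in mouse 3 (-0.028), Rps19 in mouse 2 (0.47) and Rps28 in mouse 4 (0.27). In 9 genes the ratio differed between the dye orientations by limma's adjusted p. The fitted differences, mutant in Cy5 minus mutant in Cy3, were -1.07 for Rpl22, -0.69 for Rps15a and -0.41 for Rpl30. They were 0.57 for Rps3a1, 0.55 for Rps20, 0.52 for Rps27l, 0.42 for Rpl9, 0.37 for Rps10 and 0.25 for Rps21.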

How the results depend on the processing

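The subunit medians stayed above 0 under the 16 alternatives that recomputed them (the random block and the unmoderated test did not), from 0.05 to 0.26 for the large and from 0.07 to 0.26 for the small subunit. No member was called against the pool under any alternative but the random block, which called 6 members and 221 rows in all (main count 0). Large minus small is here the difference between the subunit medians of the means over mice, which was 0.012 in the main analysis. With the mutant in Cy5 alone, 3 rows were called and large minus small was -0.038. Means were then -0.24 for Rpl22, 0.049 for Rpl26, -0.072 for Rps15a and -0.20 for Rps6. With it in Cy3 alone, 1 row was called and large minus small was 0.090. In that orientation 8 of 59 members were higher at an unadjusted p under 0.05, where 10.6% of all rows were. Positive in every mouse were 13 members, where 15.7% of all rows were. The means were then 0.059 for Rplp1, -0.021 for Rps20 and -0.092 for Rps3a1. From the construction of these alternatives, each keeps only 8 of the 16 arrays. With the values read as Cy5 over Cy3, 12 rows were called and large minus small was -0.028. Under that reading 6 of 59 members were higher at an unadjusted p, where 6.65% of all rows were. Only 9 members were positive in every mouse, where 13.4% of all rows were. That reading gave -0.53 for Rpl22, 0.073 for Rpl26, -0.060 for Rpl31, -0.087 for Rpl34, 0.074 for Rpl39l, -0.10 for Rpl5, -0.043 for Rplp2, -0.34 for Rps15a, -0.29 for Rps6 and -0.0042 for Rps9. It also called 2 rows between mice and 260 for dye. Repeat 1 alone left 17 members positive in every mouse, where 8.55% of all rows were. Repeat 2 alone gave -0.013 for Rpl35 and 0.040 for Rplp1. With each probe as a row, 35 of 91 member probes were higher at an unadjusted p, where 5.83% of all rows were, and 49 rows differed between mice. Without centring, 1 member differed between mice, and 2740 rows and 19 members passed for dye. Scaled arrays gave 16 rows between mice; rows complete on all arrays gave 51 rows and 1 member between mice, and -0.11 for Rps13. Leaving out a mouse in turn gave 6 to 26 members higher at an unadjusted p, where 3.41% to 5.56% of all rows were. These fits called 5 to 13 rows and 0 to 1 members between mice, and 44 to 2701 rows and 0 to 19 members for dye. Means were then -0.097 to 0.061 for Rpl26 and -0.038 to 0.056 for Rplp1. Beyond the construction of each alternative, the cause was not tested.

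No paired analysis was possible because the design has 1 group of mice against 1 pool, with no second group to pair. The number of mice, the single pool and the missing intensities limit what can be told of changes this small.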
